A study of Medicago sativa with 9 samples.

Results

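The genes described here are the evening genes of the plant circadian clock together with the histone demethylase gene JMJ30, in leaves of alfalfa (Medicago sativa). They were chosen by the description each gene carries in the deposited expression table: two-component response regulator-like APRR1 (also called TOC1), protein EARLY FLOWERING 3 (ELF3), protein EARLY FLOWERING 4 (ELF4), transcription factor LUX, and lysine-specific demethylase JMJ30 isoform X1, with the ion channel POLLUX left out. This choice gave 29 of the 164632 genes in the table. Alfalfa carries 4 copies of each of its 8 chromosomes, and genes with the same description on the same numbered chromosome were summed, which gave 6 groups: APRR1 on chromosome 3 with 5 genes, APRR1 on chromosome 8 with 4, ELF3 on chromosome 3 with 4, ELF4 on chromosome 3 with 8, LUX on chromosome 2 with 4 and JMJ30 on chromosome 4 with 4.

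The study measured poly(A) RNA in leaves at 0, 12 and 48 h of treatment with selenium as Se(IV), given at 100 mg per kg. Each time had 3 libraries. The labels give no cultivar, plant age, hour of the day or light regime. No untreated leaves at 12 or 48 h were analysed here. The 48 h leaves were taken a whole number of days after the 0 h leaves and the 12 h leaves were not, so that treatment and time of day cannot be told apart in any comparison with 12 h, and at 48 h against 0 h treatment and the days gone by cannot be told apart. Whether libraries of the same time stem from different plants is not in the labels, so p-values weigh changes against a spread among libraries that may be technical.

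In Arabidopsis, where these proteins are best known, ELF3, ELF4 and LUX form the evening complex, which gathers around dusk and represses its target genes during the night. APRR1 is a pseudo-response regulator that represses the morning genes LHY and CCA1, and these morning factors in turn repress APRR1 and other evening genes. JMJ30 belongs to the JmjC class of demethylases, which remove methyl groups from lysines of histones, and is itself expressed around dusk in Arabidopsis. In the deposited table, the GO term for circadian rhythm stood on 16 of the 29 genes (of 324 genes in the whole table), which were APRR1, ELF3 and JMJ30 genes.

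Libraries held 39936347 to 56137145 counts, and 3 counts, the floor used for a gene with no count, stood for 0.0534 to 0.0751 counts per 1000000. Scaling factors (trimmed mean of M values, TMM) were 1.22 to 1.30 in the 12 h libraries, 0.844 to 0.987 at 0 h and 0.820 to 0.916 at 48 h. Some libraries of the same time resembled each other in the chromosome copies from which their reads came. Over 3482 groups, the median share of reads lying on different copies was 9.25% to 9.39% between libraries of 12 h and 10.4% between 48 h replicates 1 and 3. For every other pair of libraries it was 20.2% to 23.9%. No pair of the same time agreed within counting noise, and all 9 libraries were kept as separate samples. With the 3 libraries of 12 h summed to 1 and 48 h replicates 1 and 3 summed to 1, no group of the 19869 tested passed in any comparison, while 2290 groups had an unadjusted p below 0.05 at 12 h against 0 h, and the changes of the evening groups in that fit are given beside the results.

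At 12 h, APRR1, ELF3, ELF4 and JMJ30 were all far above their levels at 0 h and at 48 h, and in each of the 5 groups every 12 h library lay above every other library in FPKM, as it did in 28.0% of all 19869 groups tested. LUX was close to the detection limit throughout. JMJ30 went from 10 counts in the 3 libraries of 0 h to 8423 counts at 12 h and 8 counts at 48 h. None of the groups differed between 48 h and 0 h at an adjusted p below 0.05. Levels below are FPKM (fragments per kilobase of transcript and per 1000000 fragments, computed by the authors), summed over the copies of a group and given as mean ± SD with n = 3. Changes are log2 ratios ± SE from edgeR's quasi-likelihood test on the counts, with Benjamini-Hochberg adjustment over all 19869 groups tested. FPKM values are not TMM-scaled, so a ratio of FPKM values and a fitted change need not be equal. In leaf tissue measured in bulk, fewer cells of a type and less RNA per cell cannot be told apart.

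**Figure D1:**
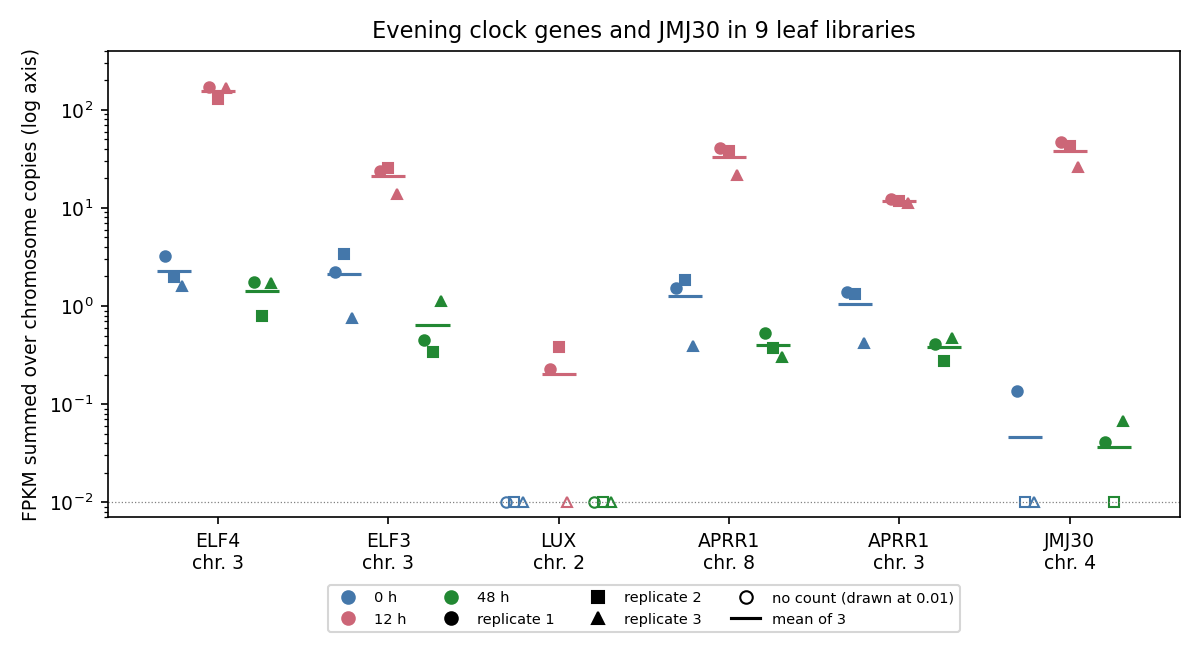
Level of each evening group and of JMJ30 in the 9 libraries, as FPKM summed over chromosome copies on a log axis; colours give the time, symbols the replicate, horizontal bars the mean of 3 libraries, and open symbols at 0.01 a library with no count. The 12 h points of ELF4, ELF3, both APRR1 groups and JMJ30 lie above all points of 0 h and 48 h, and LUX has counts in 2 of the 3 libraries of 12 h only.

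All groups but LUX, 5 of 6, reached a summed FPKM of 1 in 3 or more libraries and were tested. Without the 12 h libraries only 2 of them, ELF3 and ELF4, would have passed that filter. JMJ30 and both APRR1 groups passed it through the time at which they were high, so the counts and medians over the 5 groups are a description and are not read against the shares of all groups. At 12 h against 0 h all 5 tested groups rose, where 4.92% of all tested groups were called higher and 13.3% were called in either direction. All 5 fell at 48 h against 12 h, where 9.37% of all tested groups were called lower and 21.7% in either direction. Between 48 h and 0 h none was called, where 6.90% of all tested groups were, 3.56% higher and 3.34% lower. The median log2 change of the 5 groups was 4.32 at 12 h against 0 h, -1.46 at 48 h against 0 h and -5.79 at 48 h against 12 h, and over all tested groups it was near 0, at 0.00, -0.04 and -0.06. With scaling by library totals alone the medians of all groups moved to 0.44, -0.15 and -0.61, and those of the 5 groups to 4.73, -1.62 and -6.35.

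APRR1 on chromosome 8 was the more abundant of the APRR1 groups at 12 h. Its FPKM was 1.53, 1.85 and 0.390 in the 0 h libraries, 40.5, 37.7 and 21.6 at 12 h, and 0.537, 0.376 and 0.302 at 48 h. The 12 h values stood apart from both other times, whereas the 0 h and 48 h ranges overlapped because 0 h replicate 3 was low. The group rose by 4.32 ± 0.55 at 12 h against 0 h (edgeR adjusted p = 0.00209) and fell by 5.79 ± 0.59 at 48 h against 12 h (adjusted p = 0.000637). Between 48 h and 0 h its change was -1.46 ± 0.51 (adjusted p = 0.123).

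APRR1 on chromosome 3 also rose at 12 h, to a lower level. Its FPKM was 1.40, 1.31 and 0.420 at 0 h, 12.3, 11.8 and 11.2 at 12 h, and 0.406, 0.276 and 0.476 at 48 h. The 3 libraries of 12 h lay close together, with a coefficient of variation of 4.55% against 30.6% for the chromosome 8 group. The change was 2.98 ± 0.44 at 12 h against 0 h (edgeR adjusted p = 0.00413), -4.49 ± 0.47 at 48 h against 12 h (adjusted p = 0.000726) and -1.51 ± 0.43 at 48 h against 0 h (adjusted p = 0.0717).

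ELF3, the scaffold that holds the evening complex together, had FPKM values of 2.22, 3.40 and 0.761 at 0 h, 23.9, 25.5 and 13.9 at 12 h, and 0.446, 0.337 and 1.13 at 48 h. Its 12 h values were all above the others, and 0 h replicate 3 lay within the 48 h range. ELF3 rose by 2.92 ± 0.59 at 12 h against 0 h (edgeR adjusted p = 0.0143). That call was lost by a narrow margin when 0 h replicate 1, 12 h replicate 1 or 12 h replicate 2 was left out, with changes of 2.91, 2.84 and 2.73 and edgeR adjusted p-values of 0.0503, 0.0529 and 0.0548. ELF3 fell by 4.56 ± 0.64 at 48 h against 12 h (adjusted p = 0.00223), and its change at 48 h against 0 h was -1.64 ± 0.57 (adjusted p = 0.124).

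ELF4, the small protein that binds ELF3 in the evening complex, had the highest FPKM of these groups at 12 h. Its values were 3.24, 1.96 and 1.62 at 0 h, 172, 130 and 168 at 12 h, and 1.76, 0.791 and 1.71 at 48 h. ELF4 rose by 5.63 ± 0.37 at 12 h against 0 h (edgeR adjusted p = 0.000207) and fell by 6.18 ± 0.39 at 48 h against 12 h (adjusted p = 0.000113). The 0 h and 48 h ranges overlapped, with a change of -0.55 ± 0.33 (adjusted p = 0.361).

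LUX, the MYB-type protein that gives the evening complex its contact with DNA, was barely detected. No count fell on any of its 4 genes at 0 h or 48 h, and the group had 15, 27 and 0 counts in the 12 h libraries, an FPKM of 0.230, 0.384 and 0. The counts came from MS.gene004258 in 12 h replicate 1 and from MS.gene002588, MS.gene01570 and MS.gene54290 in 12 h replicate 2. LUX did not pass the filter on low values. In the edgeR fit without that filter it was not called at 12 h against 0 h (adjusted p = 0.28, unadjusted p = 0.07). The table also holds PCL1 on chromosome 4, whose name is a synonym of LUX in Arabidopsis and which was looked up after values had been seen. PCL1 was at 3.83 ± 0.794 FPKM at 0 h, 4.47 ± 0.532 at 12 h and 2.51 ± 0.918 at 48 h (n = 3), a change of -0.20 ± 0.34 at 12 h against 0 h (edgeR adjusted p = 0.761).

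JMJ30 on chromosome 4 had FPKM values of 0.137, 0 and 0 at 0 h, 46.6, 42.4 and 25.9 at 12 h, and 0.0409, 0 and 0.0679 at 48 h. Its counts were 10, 0 and 0 at 0 h, 3171, 3111 and 2141 at 12 h, and 3, 0 and 5 at 48 h, so that the levels of 0 h and 48 h rest on a few counts. Per total counts, with no TMM scaling, JMJ30 was 704 times as abundant at 12 h as at 0 h (95% exact interval 383 to 1470) and 889 times as abundant as at 48 h (451 to 2060), where the intervals cover counting error only. The edgeR change was 9.09 ± 1.17 at 12 h against 0 h (adjusted p = 0.00227) and -9.25 ± 1.19 at 48 h against 12 h (adjusted p = 0.00161). Its size depended on the setting, from 5.19 to 14.03 at 12 h against 0 h over the alternatives run, all of them higher. Between 48 h and 0 h the change was -0.16 ± 1.23 (adjusted p = 0.962), and without 0 h replicate 1, which held all 10 counts of 0 h, it was 4.80 (adjusted p = 0.192).

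In the fit with libraries of like copy usage summed, the changes at 12 h against 0 h were 9.12 for JMJ30, 5.64 for ELF4, 4.31 for APRR1 on chromosome 8, 2.98 for APRR1 on chromosome 3 and 2.90 for ELF3. Their unadjusted p-values in that edgeR fit were 0.00245, 6.03e-05, 0.000944, 0.00777 and 0.00949, in that order, and their adjusted p-values 0.155, 0.0847, 0.122, 0.218 and 0.234. With 12 h as a single library, that fit assumes that this library varies as those of 0 h and 48 h do.

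In order of level at 12 h, ELF4 (157 ± 23.3 FPKM, n = 3) stood above JMJ30 (38.3 ± 10.9), APRR1 on chromosome 8 (33.3 ± 10.2) and ELF3 (21.1 ± 6.31), whose ranges overlapped from neighbour to neighbour. APRR1 on chromosome 3 (11.8 ± 0.535) and LUX (0.205 ± 0.193) followed, each with a separate range. At 0 h the order was ELF4 (2.27 ± 0.854), ELF3 (2.13 ± 1.32), APRR1 on chromosome 8 (1.26 ± 0.767) and APRR1 on chromosome 3 (1.05 ± 0.544), and each overlapped the next. JMJ30 (0.0457 ± 0.0792) lay below all of these at 0 h. The order was the same at 48 h, at 1.42 ± 0.544, 0.639 ± 0.431, 0.405 ± 0.120, 0.386 ± 0.101 and, for JMJ30, 0.0363 ± 0.0342, and again each of the 4 clock groups overlapped the next and JMJ30 lay below them. LUX had no count at either time.

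Comparing 48 h with 0 h, ELF3 and both APRR1 groups had unadjusted p-values below 0.05 (0.0189, 0.00684 for chromosome 3 and 0.0188 for chromosome 8) with lower means at 48 h, and edgeR called none of them after adjustment. DESeq2 called these 3 groups lower and limma called none. In all 3 groups 0 h replicate 3 was the lowest library of 0 h. Without that library, edgeR called APRR1 on chromosome 3 at -1.87 (adjusted p = 0.0222) and APRR1 on chromosome 8 at -1.85 (adjusted p = 0.0438).

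The single copies showed how each group's level was made up. Near-identical copies can exchange reads, and how reads matching several copies were handled is not given in the sources used here, so a single copy's value is less certain than the group's. Of the 29 genes, 20 passed the filter when tested singly, and without the 12 h libraries 0 of these 20 would have passed, so the counts of single genes below are a description and are not read against the shares of all genes. At 12 h against 0 h, 11 single genes were called higher by edgeR, where 1.58% of all 50878 genes tested were and 5.88% were called in either direction. They were all 4 JMJ30 genes, 5 ELF4 genes, 1 ELF3 gene (MS.gene012835) and 1 APRR1 gene (MS.gene044399). That count depended on single libraries, with 1, 3 and 7 genes called without 12 h replicate 1, 2 or 3. Of the same 20 genes, 13 were called lower at 48 h than at 12 h, where 3.61% of all genes were lower and 6.96% higher, and without 12 h replicate 1 or 2 the count was 5 in each case. For 48 h against 0 h edgeR called 0 single genes, where 1.14% of all genes were called, with 0.647% of all genes higher and 0.497% lower. Of the 20, 2 had an unadjusted p below 0.05, DESeq2 called 1 and limma none.

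JMJ30 was expressed from all 4 copies at 12 h, most from MS.gene95023 on copy 4.4 (chr4.4:40112041-40117659, plus strand, in the coordinates of the deposited table). MS.gene95023 was at 18.2 ± 4.69 FPKM and gave 47.6% of the group's counts, followed by MS.gene003928 on copy 4.2 at 11.3 ± 2.73, MS.gene54605 on copy 4.3 at 5.19 ± 3.12 and MS.gene056338 on copy 4.1 at 3.67 ± 0.532. The other 3 copies had no count at 0 h in any library. With TMM scaling and a floor of 3 counts in each library, MS.gene003928 was at least 170-fold higher at 12 h, MS.gene54605 at least 78.1-fold higher and MS.gene056338 at least 55.4-fold higher. The 12 h libraries were not alike in MS.gene54605, which had 555, 402 and 160 counts.

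The ELF4 genes lay in neighbouring pairs on each of the 4 copies of chromosome 3, with 3.36 to 8.40 kb between the members of a pair. One member of each pair spanned 393 bp, and its neighbour 405 bp, or 363 bp on copy 3.2. The 393-bp gene had the higher FPKM in every pair and every library of 12 h. On copy 3.1, MS.gene057341 was at 12.4 ± 1.57 against 9.41 ± 2.22 for MS.gene057340, a ratio of 1.17 to 1.52 across libraries. On copies 3.3 and 3.4, MS.gene008061 (35.0 ± 5.95) and MS.gene031981 (23.5 ± 2.30) stood above MS.gene008062 (15.4 ± 4.48) and MS.gene031982 (11.5 ± 2.37), by ratios of 1.72 to 2.83 and 1.90 to 2.37. Copy 3.2 was the exception, where MS.gene69228 (chr3.2:64204449-64204841, plus strand) had the highest FPKM of all 29 genes at 49.5 ± 6.29 and its shorter neighbour MS.gene69229 was at 0.141 ± 0.147, with 7, 2 and 1 counts. These pairs were looked at after values had been seen and are given as a description.

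ELF3 counts at 12 h came mostly from MS.gene012835 on copy 3.3 (59.5%; 12.5 ± 2.93 FPKM) and MS.gene015040 on copy 3.2 (32.3%; 6.89 ± 2.90). MS.gene32838 on copy 3.1 had 233, 225 and 0 counts in the 12 h libraries. MS.gene37446 on copy 3.4 had 37, 8 and 129 counts at 12 h and 0, 109 and 0 at 0 h, so that its counts were widely spread within both times.

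Of the APRR1 genes on chromosome 8, MS.gene58413 (copy 8.3) was at 14.0 ± 4.49 FPKM at 12 h, MS.gene044399 (copy 8.4) at 10.8 ± 3.18 and MS.gene061735 (copy 8.1) at 8.06 ± 2.43. MS.gene033108 (copy 8.2), which spans 3887 bp as MS.gene061735 does, was at 0.413 ± 0.161. Of the APRR1 genes on chromosome 3 with counts, MS.gene63559 (copy 3.2) was lowest at 2.25 ± 0.386. MS.gene45595 (copy 3.1) was at 2.59 ± 0.0276 and MS.gene45593 (copy 3.4) was highest at 4.09 ± 0.182. Copy 3.4 held 3 short APRR1 genes of 1917, 1188 and 915 bp, where those on copies 3.1 and 3.2 span 5425 and 5647 bp, and no gene of this description was listed on copy 3.3. Of the short genes, MS.gene81017 was at 2.83 ± 0.163 FPKM and MS.gene81018 had no count in any library.

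**Figure D2:**
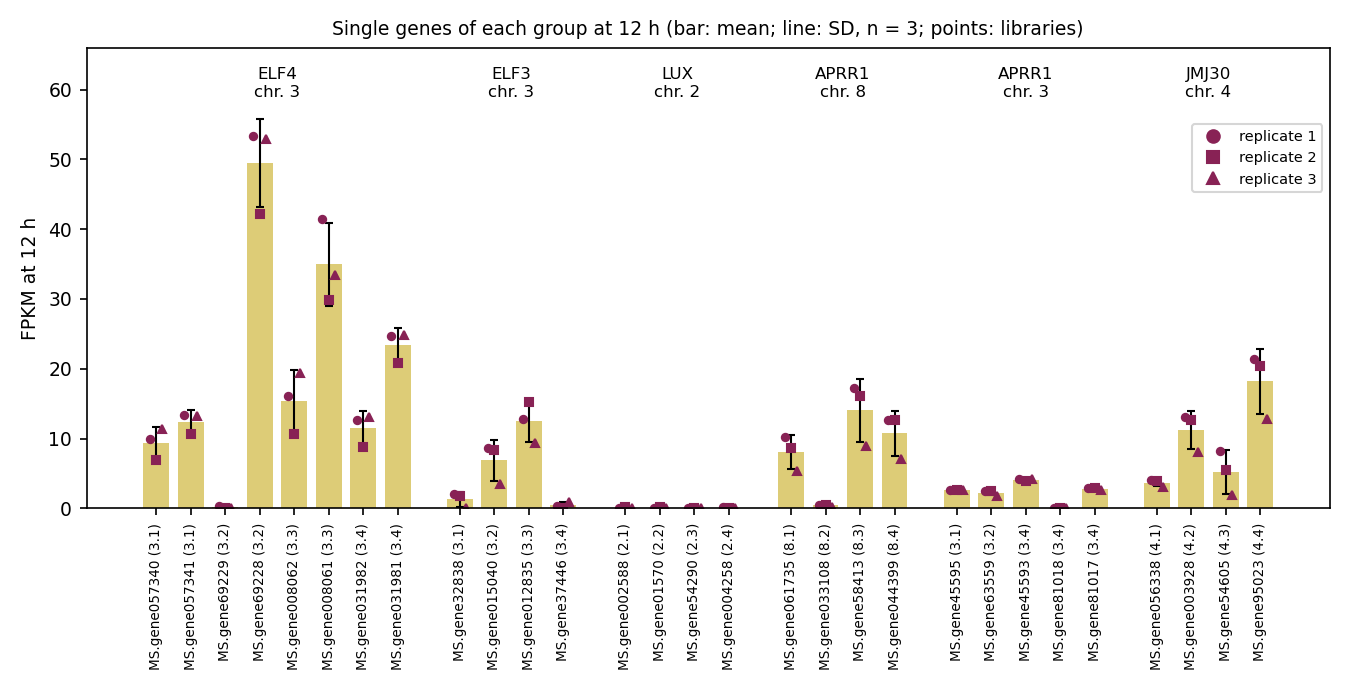
FPKM of each of the 29 single genes at 12 h, labelled with the chromosome copy in brackets; bars give the mean, lines the SD (n = 3) and symbols the 3 libraries. In each ELF4 pair one gene stands above its neighbour, most of all on copy 3.2, where MS.gene69228 is at 49.5 and MS.gene69229 at 0.141, and the 4 JMJ30 genes range from 3.67 to 18.2.

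The 12 h libraries did not vary alike in all groups. In TMM-scaled counts per 1000000 (CPM), APRR1 on chromosome 8 was at 65.0, 63.7 and 35.7 in replicates 1, 2 and 3, JMJ30 at 53.3, 50.9 and 30.5, and ELF3 at 45.7, 51.3 and 27.3. Replicate 3 was thus at 0.555, 0.585 and 0.563 of the mean of replicates 1 and 2 in these groups. ELF4, at 62.7, 49.7 and 63.1, and APRR1 on chromosome 3, at 14.6, 14.8 and 13.5, did not share that drop, with 1.12 and 0.920. Over 16422 groups, 12 h replicates 1 and 2 were also closer to each other (median chi-square 6.83) than either was to replicate 3 (25.7 and 26).

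**Figure D3:**
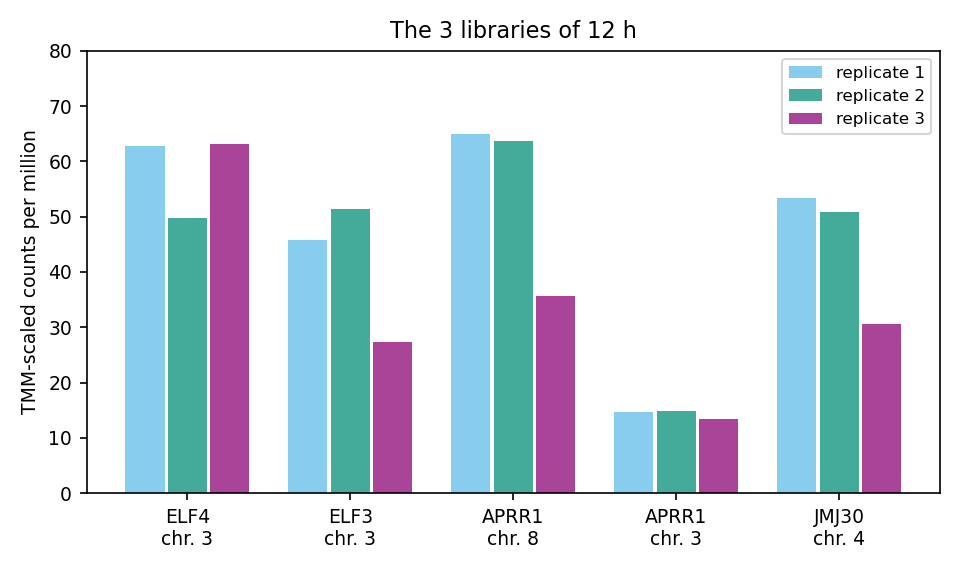
TMM-scaled CPM of the 5 tested groups in each library of 12 h, as bars that start at 0. Replicate 3 is the lowest bar for ELF3, APRR1 on chromosome 8 and JMJ30 and is not set apart for ELF4 and APRR1 on chromosome 3.

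The other genes of the clock moved mostly the other way at 12 h. A list of 85 other clock genes gave 32 groups, of which 23 were tested. At 12 h against 0 h 12 of these fell and 1 rose, with a median log2 change of -0.93, where 8.35% of all tested groups were called lower and 4.92% higher. LHY on chromosome 7, a morning MYB factor, fell from a 0 h level of 212 ± 22.0 FPKM to 0.835 ± 0.325 (-8.38 ± 0.38, edgeR adjusted p = 9.87e-05, n = 3). LNK3 on chromosome 8 (149 to 0.722, -8.12), LNK1 on chromosome 2 (36.4 to 0.445, -6.74) and LNK1 on chromosome 4 (40.3 to 1.04, -5.69), coactivators that work with REVEILLE proteins in Arabidopsis, and REVEILLE 8 on chromosome 1 (100.0 to 2.81, -5.56) fell as well. Among the others that fell were GIGANTEA on chromosome 1 (69.0 to 9.57, -3.05) and APRR5 on chromosome 8 (17.5 to 0.225, -6.66). Their edgeR adjusted p-values were 0.0005 and 0.00165, and both are named here after their values were seen. The group that rose was REVEILLE 1 on chromosome 5, an LHY relative, from 7.06 ± 0.974 to 52.3 ± 21. Its change was 2.46 ± 0.35 (edgeR adjusted p = 0.00336), and it too is named after its values were seen.

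Between 12 h and 48 h 10 of the 23 other clock groups rose and 1 fell, with a median of 0.50, where 12.3% of all tested groups were called higher and 9.37% lower. LHY reached 791 ± 99.8 FPKM at 48 h, above its 12 h level by 10.38 and above its 0 h level by 2.0 ± 0.29 (edgeR adjusted p = 0.00893 against 0 h). Against 0 h, 3 of the 23 rose at 48 h and 2 fell, with a median of -0.10, where 3.56% of all tested groups were called higher and 3.34% lower. Besides LHY, those that rose were REVEILLE 8 (1.14) and APRR2 on chromosome 5 (1.21), and the pseudo-response regulators APRR7 (46.4 to 17.1 FPKM, -1.37) and APRR3 (92.2 to 29.9, -1.56) fell. Some of these 48 h calls were lost without 1 library. Without 48 h replicate 1, the edgeR adjusted p was 0.0857 for REVEILLE 8, 0.0684 for APRR7, 0.0695 for APRR2 and 0.158 for APRR3. REVEILLE 8 also lost its call without 0 h replicate 2 (0.0583) and APRR2 without 48 h replicate 3 (0.0536). For APRR3 the call was lost without any library but 0 h replicate 2 or 48 h replicate 2, and its change was -1.09 without 0 h replicate 3. The evening groups and these lists share the same libraries in each comparison, so their changes are not independent of each other.

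**Figure D4:**
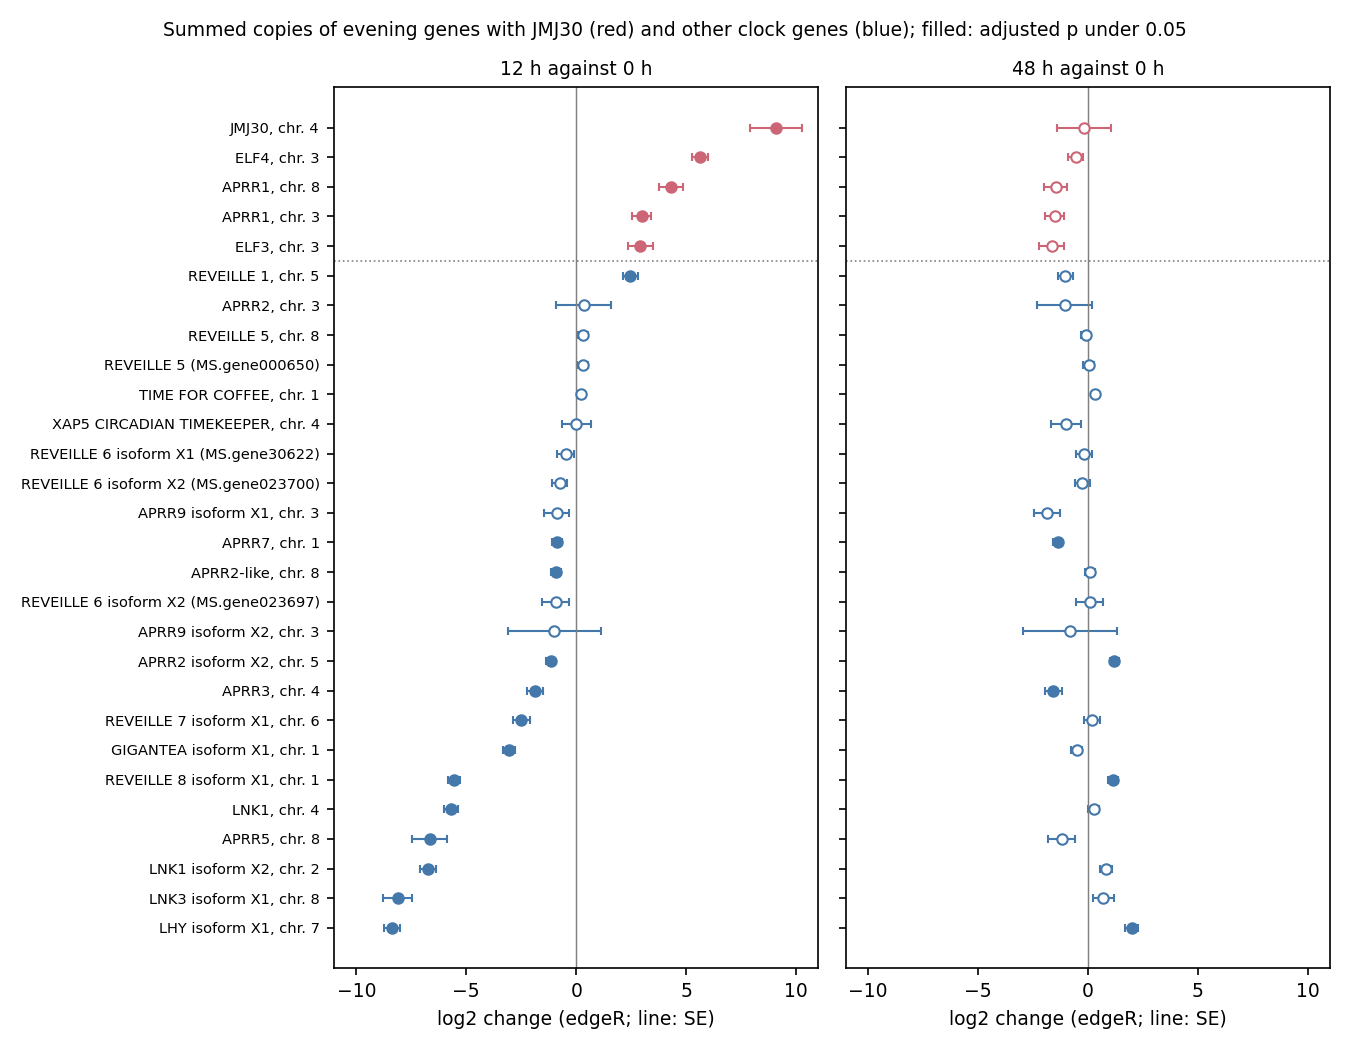
Log2 change ± SE (edgeR) of the summed copies of evening genes and JMJ30 (red) and of 23 groups of other clock genes (blue) at 12 h against 0 h and 48 h against 0 h; filled points have an adjusted p below 0.05. At 12 h the red points run from 2.92 to 9.09 and most filled blue points lie below 0, down to -8.38 for LHY, while at 48 h no red point is filled.

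The other JmjC demethylase genes, relatives of JMJ30 that act on various histone lysines, were 115 genes in 37 groups, 16 of them tested. At 12 h against 0 h edgeR called 0 of these 16, with a median change of 0.37, where 13.3% of all tested groups were called. Of the 16, 2 had an unadjusted p below 0.05. DESeq2 and limma each called 2 higher, where they called 23.1% and 26.6% of all groups in either direction. Of those with the smallest adjusted p, JMJ25 on chromosome 4 was at 5.52 ± 0.401 FPKM at 0 h and 11.4 ± 1.98 at 12 h (0.64, edgeR adjusted p = 0.0612) and JMJ25 on chromosome 1 at 0.596 ± 0.196 and 2.14 ± 0.428 (1.39, adjusted p = 0.0792). Of all tested groups, 6.90% were called at 48 h against 0 h and 21.7% at 48 h against 12 h. The one group of this list called at 48 h was JMJ706 on chromosome 5, which rose from 3.57 ± 1.0 FPKM at 0 h to 8.91 ± 1.21 (1.42 ± 0.26, edgeR adjusted p = 0.0177) and was also above its 12 h level by 1.85 ± 0.26 (adjusted p = 0.00222). Its call against 0 h was lost without 0 h replicate 3 (adjusted p = 0.0512) or 48 h replicate 1 (0.0818), and JMJ25 on chromosome 4 was called at 12 h without 12 h replicate 3 (0.0457). Whether the change of JMJ30 differs from that of the other JmjC genes was not tested beyond these values.

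A list meant for partners and outputs of the evening complex, 88 genes in 28 groups with 12 tested, moved in both directions. It was matched on names and took in any gene named after the ubiquitin ligase COP1. A link of each gene to the evening complex was not tested. At 12 h against 0 h 2 rose and 2 fell, against 4.92% and 8.35% of all tested groups. COP1-interacting protein 7 on chromosome 2, which binds the ubiquitin ligase COP1, rose from 4.82 ± 0.992 to 26.4 ± 1.70 FPKM (1.97 ± 0.20, edgeR adjusted p = 0.000853) and fell back at 48 h (-1.71). The phytochrome-interacting factor PIF3, which acts against light responses in seedlings, rose from 0.836 to 6.12 FPKM on chromosome 1 (2.45) and fell on chromosome 7 from 39.2 ± 41.9 to 0.181 ± 0.158 (-8.28 ± 1.37, adjusted p = 0.00661), where the 0 h libraries were widely spread. A PIF3 gene outside the numbered chromosomes, MS.gene23098, also fell, from 7.59 to 0.0869 FPKM (-6.96, adjusted p = 0.0157; 0.0511 without 12 h replicate 2).

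From 12 h to 48 h 3 of the 12 groups rose and 2 fell, against 12.3% and 9.37% of all tested groups. PIF4 on chromosome 3, a growth regulator that the evening complex represses in Arabidopsis, rose from 12.9 ± 6.74 to 59.8 ± 9.20 FPKM (2.82 ± 0.47, edgeR adjusted p = 0.00475). The other two that rose were PIF3 on chromosome 7 (7.79) and MS.gene23098 (6.74). At 48 h against 0 h 1 group fell, where 3.34% of all tested groups were called lower. It was COP1-interactive protein 1-like on chromosome 6, from 1.87 ± 0.633 FPKM to no count in any library of 48 h. That call was lost without 0 h replicate 1 or 3, any library of 12 h, or 48 h replicate 1 or 3, with edgeR adjusted p-values up to 0.0832. PIF3 on chromosome 1 was not called at 48 h against 0 h with all libraries (1.96 ± 0.55, edgeR adjusted p = 0.0715). It was called higher at 48 h (2.89, adjusted p = 0.0157) when 0 h replicate 2 was left out.

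Relatives of the member genes, by name or orthology, were looked up after values had been seen. ELF4-LIKE 4 on chromosome 2 was at 22.9 ± 6.57 FPKM at 0 h, 21.7 ± 7.94 at 12 h and 44.3 ± 6.26 at 48 h, with a change of -0.53 at 12 h against 0 h (edgeR adjusted p = 0.383) and a rise of 1.54 at 48 h against 12 h (adjusted p = 0.0200). ELF4-LIKE 4 on chromosome 8 was at 20.1 ± 0.649, 45.7 ± 5.44 and 20.8 ± 7.02, a change of 0.75 at 12 h against 0 h that was not called (adjusted p = 0.105). HEADING DATE 3B on chromosome 8 (0.433 ± 0.217, 1.14 ± 0.642 and 0.470 ± 0.179 FPKM) did not pass the filter and was not tested. The same held for MYBC1 on chromosome 7 (0.499 ± 0.185, 0.686 ± 0.327 and 1.06 ± 0.529).

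Across the 9 libraries, on log2 CPM, Pearson's r between the 5 tested groups ranged from 0.917 (JMJ30 and ELF3) to 0.993 (JMJ30 and ELF4), and all of these share the libraries and the step between 12 h and the other times. Of 13706 groups compared, the one most like JMJ30 was a Ty3/gypsy retrotransposon protein on chromosome 3 (r = 0.998), followed by the RNA helicase DExH10 on chromosome 5 (0.997) and an elongation factor 1-alpha-like gene on chromosome 8 (0.996). DExH10 was also the one most like ELF4 (r = 0.997), at 0.0330, 4.19 and 0.00758 FPKM at 0, 12 and 48 h. Thioredoxin domain-containing protein 9 homolog on chromosome 1 (7.28, 23.9 and 5.11 FPKM) was most like APRR1 on chromosome 8 (r = 0.988), and phosphatidate phosphatase PAH1 on chromosome 1 (7.46, 17.7 and 5.36 FPKM) was most like ELF3 (r = 0.984).

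Markers of leaf tissue were abundant at all times. Of 140 mesophyll marker genes, 121 had a mean FPKM of at least 1, and their summed FPKM was 135000 to 205000 at 0 h, 133000 to 150000 at 12 h and 169000 to 227000 at 48 h. Phloem markers (14 of 63 at a mean of at least 1, led by SIEVE ELEMENT OCCLUSION B) summed to 49.5 to 1010 FPKM at 0 h, 428 to 1060 at 12 h and 9.22 to 158 at 48 h. Xylem markers (10 of 109) summed to 18.8 to 70.9, 13.6 to 42.5 and 17.3 to 59.3. Genes matched by name as flower and pollen markers, agamous-like genes among them (12 of 433, led by AGL19), summed to 61.1 to 76.2, 83.6 to 120 and 47.5 to 53.2. That sum was highest at 12 h. AGL19 alone had mean FPKM values of 34.4, 51.7 and 33.3 at 0, 12 and 48 h. Whether the genes of this list mark flower tissue here was not tested. Root and nodule markers (0 of 82) summed to at most 1.95, with leghemoglobin at 0 in all libraries. The part of the phloem and flower markers in the 12 h results was not tested.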

How the data were processed

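Per the labels' protocols, libraries were made from fragmented poly(A) RNA (insert 300 ± 50 bp, both ends read). HISAT and StringTie are named in the submitters' processing notes, while genome build and annotation were not given in the sources used here. The deposited table holds, for each gene and library, a whole-number read count, not normalized, and an FPKM value computed by the authors, listed as 0.0001 where the count is 0 and read here as 0. Members and gene lists were chosen with earlier results of these data known. Summing counts over genes alike in description and numbered chromosome left 48862 groups. Those reaching an FPKM of 1 in 3 or more libraries (19869 groups, and 50878 genes taken singly) were tested with edgeR 4.0.16 (TMM, quasi-likelihood F-test, all 9 libraries, 1 mean per time, Benjamini-Hochberg, 0.05) in R 4.3.3. The SE is the log2 change divided by the square root of F. On simulated counts with 200 of 19869 groups changed, the test found 26.9% of changes of 4-fold, 65.7% of those of 16-fold and 86.4% of those of 64-fold at 12 h against 0 h, with 7 false calls. At 48 h against 0 h it found 17.9%, 65.7% and 77.3%, in that order, with 7 false calls. Changes smaller than 4-fold were not simulated, so a smaller change between 48 h and 0 h can go uncalled.

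Every member is accounted for. From each list, the groups with a mean FPKM of at least 1 and the smallest adjusted p per comparison are named, at most 5 for clock genes and 3 for the other lists. Groups of like pattern are the 3 with the highest Pearson's r, on log2(CPM + 0.5). Copy usage was compared over groups with 1 gene per chromosome copy, 4 in all, and 200 or more counts in every library. Floors and intervals cover counting error only. Alternatives were DESeq2 1.42.0, limma 3.58.1 on log2(FPKM + 1) or log2(FPKM + 0.1), other scalings and filters, robust spread, fits of the 6 libraries compared, a replicate block, libraries left out in turn, single copies, and libraries of like copy usage summed.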

Additional observations from a re-analysis of the deposited data

How the results depend on the processing

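Of 1030 changes recomputed under the alternatives, 906 kept their direction and their side of the threshold, 88 kept their direction and lost the call, 28 gained one and 8 changed sign. The evening groups called at 12 h against 0 h numbered 5 and ranged from 4 to 5 with a library left out, ELF3 being lost, and those at 48 h against 12 h stayed at 5. With libraries of like copy usage summed, 12 h was left as a single library. No call was kept in that fit for any group or single gene, and the cause was not tested. The 5 groups kept the direction of their changes, at 2.90 to 9.12 at 12 h against 0 h. At 48 h against 0 h the count of 0 groups became 3 with DESeq2, which called 16.9% of all groups where edgeR called 6.90%. With a library left out the count was 0 to 2.

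Single genes were less stable. At 12 h against 0 h the 11 genes called became 20 and 19 with limma at a pseudocount of 1 and 0.1, and 1 to 13 with a library left out. Of all genes, limma called 16.2% and 11.5% there and edgeR 5.88%. At a pseudocount of 1, limma called 5564 genes higher and 2692 lower, against 806 and 2185 with edgeR. The limma fits use FPKM values, which are not TMM-scaled. At 48 h against 12 h the 13 became 20 and 20 with limma, and 5 to 15 with a library left out. Of all genes, limma called 25.2% and 20.9% in that comparison and edgeR 10.6%. At 48 h against 0 h the 0 became 1 with DESeq2 and 0 to 2 with a library left out. The cause was not tested. Replicate numbers did not pair the libraries, since deviations of libraries with the same number correlated by -0.051 to 0.055. With a replicate block, 5 groups were called at 12 h against 0 h and 5 at 48 h against 12 h, and 3 and 6 single genes.

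The sign changes were in values that passed no test. JMJ30 at 48 h against 0 h was 4.80 without 0 h replicate 1, 0.36 without 48 h replicate 2, from -0.86 to 4.80 over all libraries left out, 0.16 with the replicate block and 4.05 for MS.gene003928 alone. ELF3 was 0.29 for MS.gene015040 alone and ELF4 0.18 for MS.gene031981 and 0.20 for MS.gene69228, at 48 h against 0 h. JMJ706 at 12 h against 0 h was 0.00 with library totals alone, from -0.43. Depth limits LUX and the 0 h and 48 h levels of JMJ30.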
